A study of Mus musculus with 6 samples.

Results

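The replication-dependent histone genes encode the bulk of the linker histone H1 and of the core histones H2A, H2B, H3 and H4. They were taken here as every listed gene whose symbol begins with Hist1h, Hist2h, Hist3h or Hist4h, the older names of the mouse histone clusters, which gave 68 of the 23420 genes in the files: 6 for H1, 18 for H2A, 19 for H2B, 12 for H3 and 13 for H4. One of the H2B entries, Hist3h2bb-ps, is a pseudogene by its symbol. Messenger RNA was measured in sorted germinal centre B cells of the mouse spleen. These are B cells that, once activated by antigen, divide rapidly in lymphoid follicles and mutate their antibody genes. The mice had been immunized with NP-KLH, in which a hapten is coupled to a carrier protein, and spleens were taken on day 10. Both groups were hCD20TamCre+/-, a transgene whose Cre recombinase acts in B cells once tamoxifen is given. Tamoxifen doses of 1 mg followed immunization in both groups, the first at day 5, then at day 7 and day 9. The KO group was BASP1 fl/fl and the WT group BASP1 +/+, with replicates 1 to 3 in each. The labels do not state the age of the mice, which part of Basp1 is floxed or whether each library is a different mouse. The p-values therefore describe the spread between these libraries, which may be technical. For most genes that spread was estimated largely from other genes of like level.

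Histones package DNA into nucleosomes, and a dividing cell has to make a full new set during S phase. The replication-dependent genes serve this need: their transcripts have no introns as a rule and end, unlike nearly all other messenger RNAs, in a conserved stem-loop in place of a poly-A tail. The stem-loop is bound by SLBP, and a special machinery with the U7 small nuclear RNA cuts the transcript just behind it. A poly-A tailed form is also made from some of these genes when transcription runs past the stem-loop to a conventional poly-A signal. The libraries were made with a kit that selects poly-A RNA, so the levels below describe what such a selection captured and not the whole histone messenger RNA of the cells.

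The stem-loops are shown first, because they set apart the RNA ends that the selection does not favour. All 68 symbols were found in GENCODE M21 (GRCm38, the build called mm10), from which transcript models were read. The motif searched reads GG, 2 free bases, CTT, 1 free base, T, 1 free base, AG, 2 free bases and CC. It was sought on the transcript strand only, and positions 3 and 4 also had to pair with positions 14 and 13. It was present in the longest model of 45 members, against 0.252% of 21866 protein-coding genes. In that share a gene counted if any of its protein-coding transcripts held the motif, and the protein-coding members are included. Of the 23 models without it, 15 hold no more than 2 bases after the stop codon, where a stem-loop would lie, so nothing can be read from them. Those of Hist2h3b and Hist1h1a go on for 37 and 48 bases, and the other 6 are longer or, for the pseudogene, have no annotated stop. The examples below show 1 member of each of the 8 versions found and 2 more that the results turn on, each with 5 flanking bases on either side; capitals mark the 2 arms of the stem and the lower case between them the loop.
Hist1h2ae: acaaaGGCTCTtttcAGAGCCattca
Hist1h3d: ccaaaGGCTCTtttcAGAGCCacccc
Hist2h2ac: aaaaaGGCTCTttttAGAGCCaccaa
Hist1h3e: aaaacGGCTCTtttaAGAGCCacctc
Hist1h3g: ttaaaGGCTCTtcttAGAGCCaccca
Hist1h4d: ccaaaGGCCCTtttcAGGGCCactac
Hist1h4c: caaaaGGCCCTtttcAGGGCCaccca
Hist1h4i: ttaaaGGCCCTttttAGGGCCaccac
Hist1h4j: ctaaaGGTCCTtttcAGGACCaccac
Hist1h4a: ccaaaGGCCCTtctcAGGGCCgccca

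The version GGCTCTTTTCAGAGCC was found in 25 members, none of them an H4 gene (3 for H1, 10 for H2A, 7 for H2B and 5 for H3). Positions are counted from 1 at the 5′ end of the 16 bases. All 12 H4 genes with a stem-loop differed from that version by T4C together with A13G, and 7 of them by nothing else (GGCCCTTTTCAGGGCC). Hist1h4b and Hist1h4j carried C3T and G14A in addition. The search took only hits whose free stem bases pair. That these paired changes keep the stem closed is therefore a condition of the search and not a finding. Apart from those stem bases the motif left bases free only in the loop, so the search could find other differences nowhere else. The loop differences were C10A in 6 members (1 for H1, 2 for H2B and 3 for H3), C10T alone in Hist2h2ac and C10T with T8C in Hist1h3g. Among the H4 genes, C10T stood beside T4C and A13G in Hist1h4i and Hist2h4, and T8C beside T4C and A13G in Hist1h4a.

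The 16 bases lie in the 3′ UTR of an exon of each gene. On the plus strand they are at chr13:23576244-23576259 (Hist1h3d), chr13:23535889-23535904 (Hist1h3g), chr13:23581950-23581965 (Hist1h4d) and chr13:21735437-21735452 (Hist1h4j). On the minus strand they are at chr13:23570668-23570683 (Hist1h2ae), chr13:23561903-23561918 (Hist1h3e), chr13:23698089-23698104 (Hist1h4c), chr13:22040966-22040981 (Hist1h4i) and chr13:23760800-23760815 (Hist1h4a), and that of Hist2h2ac is at chr3:96220418-96220433. Hist1h2ae, with a single exon, spans chr13:23570517-23571220. Of the 68 members, 54 are on chromosome 13 (the Hist1 cluster), 10 on chromosome 3 (Hist2), 3 on chromosome 11 (Hist3) and 1 on chromosome 6 (Hist4h4). The longest model had a single exon in 63 members. Beyond the stem-loop the models went on for between 3 and 4884 bases, with a median of 108. A poly-A signal (AATAAA or ATTAAA, the transcript strand only) stood in the last 50 bases of 16 of the 68 models, against 78% of protein-coding genes. The measures are unlike, since for the latter any protein-coding transcript of a gene counted and for the members only the longest model.

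Detection of the histone genes was low in all 6 libraries. The values are log2 CPM, the log of the read count scaled to the library total. The value -5.063, called the floor here, was held by 8492 genes in every library, and 7 members were among them. It is not the lowest value: with the replicate effect removed, single values of other genes fall below it, and 60 or 61 members stood above it in a library. A further 32 members had a mean above the floor and under 1 CPM, and 29 reached a mean of 1 CPM and were tested. The tested members were 5 of 6 for H1, 8 of 18 for H2A, 7 of 19 for H2B, 4 of 12 for H3 and 5 of 13 for H4. Between 28 and 32 members stood at or above 1 CPM in a single library. Over all genes the number was between 10160 and 10173, in values deposited with the replicate effect already removed. These counts therefore do not measure whether detection was alike before processing.

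The 61 members that were not at the floor in all libraries summed to between 264.5 and 314.7 CPM per library. In comparison, the 15 listed histone genes outside these clusters, most of which end in a conventional poly-A tail and are made throughout the cell cycle, summed to between 7428 and 7947 CPM. All 68 members thus came to between 3.44% and 4.1% of that sum. These are shares of reads and are not corrected for length. Messenger RNAs of S phase were plentiful in the same libraries: the 48 genes of DNA replication summed to between 13300 and 14800 CPM, and Slbp stood at 811 CPM in WT and 748 CPM in KO (geometric means).

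The 7 members at the floor were Hist1h1t, Hist1h2ao, Hist1h2ap, Hist1h2bq, Hist1h2br, Hist1h4m and Hist2h2aa1. Hist1h1t encodes the H1 of testis, and the testis variants Hist1h2aa and Hist1h2ba were also close to the floor, at means of -4.53 and -4.40 log2 CPM. The other 6 share nearly all of their sequence with further gene copies. Of their 75-base windows, between 87.6% and 100% occur also in a transcript of another gene on either strand (overlapping genes included), whereas Hist1h1t shares none. The median share was 92.6% for the members at the floor, 52.0% for those below 1 CPM and 22.4% for those tested. These groups were set by CPM, without correction for length. Over the 61 members above the floor, Spearman's correlation of the share with CPM per kb of exon was only -0.115. The sources used here do not say how reads that fit several copies were counted, so the level of a member with much shared sequence is uncertain. In all, 63 of the 68 members share at least 1 window, and in 5 members every window is shared.

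**Figure D1:**
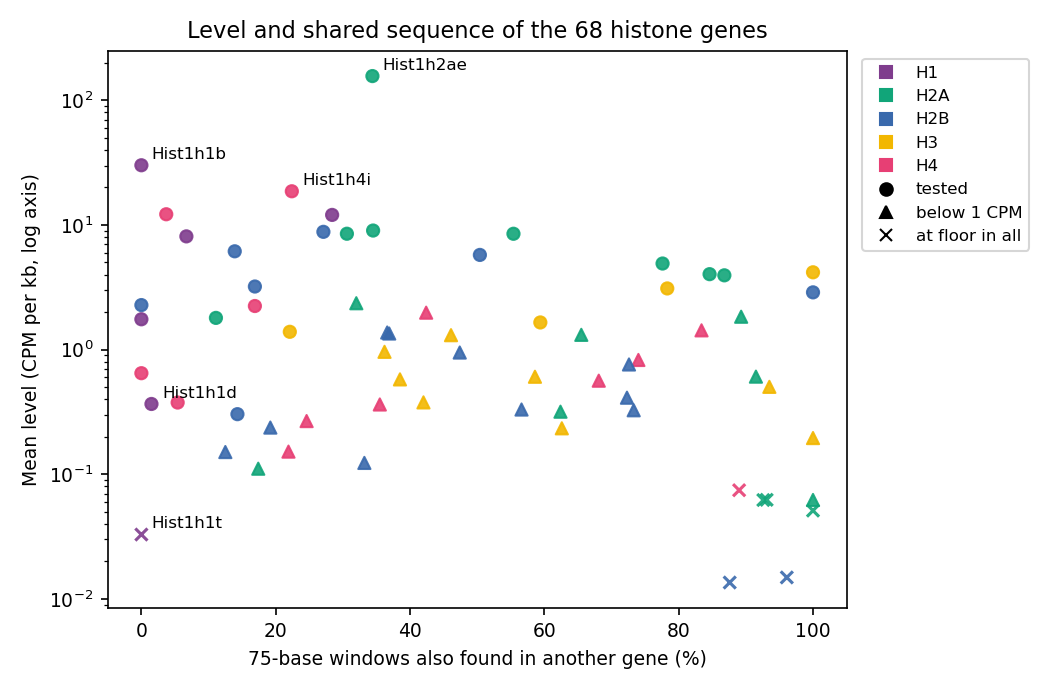
Mean level over 6 libraries in CPM per kb of exon (vertical, log axis) against the percent of 75-base windows found in another gene (horizontal), 1 point per member, coloured by class, with circles for tested members, triangles for members below 1 CPM and crosses for members at the floor in all libraries, whose height is the floor divided by the length. Of the 7 crosses 6 lie above 87% shared windows, and Hist1h2ae stands above all other members at 156.6 CPM per kb.

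Per length of exon, Hist1h2ae, a canonical H2A gene, had the highest level of all members, with 156.6 CPM per kb. It was followed by Hist1h1b, the H1.5 gene, with 30.14 CPM per kb, by the H4 genes Hist1h4i and Hist1h4d with 18.64 and 12.19, and by Hist1h1e, the H1.4 gene, with 12.04. In CPM without correction for length, Hist1h2ae alone gave between 34.4% and 42.4% of the sum over the members in a library. The annotation the study counted on is not given, so lengths from GENCODE may differ from it. Hist1h1d, whose model runs for 7425 bases, came to 0.366 CPM per kb.

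Members with a longer model behind the stem-loop were tested more often. Of the 23 whose model goes on for more than 100 bases, 15 reached 1 CPM, against 5 of the 22 whose model ends within 100 bases. The median level was 1.38 CPM in the former and 0.490 CPM in the latter, but per kb the medians were 0.947 and 0.892, so the difference is seen in reads and is small per length. With a poly-A signal at the end of the model, 9 of 16 members were tested, and without one 20 of 52. Over the 40 members above the floor with a stem-loop, Spearman's correlation of the length beyond the loop with the level was 0.301 for CPM and -0.0871 for CPM per kb. These points share their libraries and, within a class, much of their sequence.

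The comparison of KO with WT asks which transcripts differ when Basp1, which encodes a protein of the cell membrane and the nucleus, is deleted from B cells after immunization. The targeted gene, Basp1, differed by -2.51 ± 0.45 log2 CPM and was lower in every KO library (SD, n = 3 pairs; limma adjusted p = 3.3e-16). In the deposited values the replicate effect is already gone: WT plus KO gives the same sum for numbers 1, 2 and 3, to within 0.001, in each gene. The data of a gene are therefore its mean and 3 paired differences, both groups have the same SD, and the groups fail to overlap exactly when all 3 pairs go one way. Differences below are KO minus WT in log2 CPM, given as the mean of the 3 pairs with their SD.

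None of the 29 tested histone genes passed 5% FDR by limma (adjusted p from 0.317 to 0.998), where 0.266% of the 10133 genes tested did, 0.168% higher and 0.0987% lower in KO. At an unadjusted p under 0.05 there were 2 members, Hist1h4d higher and Hist1h3d lower in KO, which is 6.9% of the 29 against 8.82% of all genes tested (4.16% higher, 4.66% lower). The count higher in KO was 5 without the replicate block, 3 without the variance trend, 0 without pair 1 and 4 without pair 2. The count lower was 2 without pair 1 and 0 without pair 3. The share of all genes at an unadjusted p under 0.05 was not taken in those fits. At 5% FDR, 99 of all genes tested were called higher without the block, against 17 in the main fit. They numbered 0 without the variance trend, 27 without pair 1 and 4 without pair 2. Those called lower numbered 109 without pair 1 and 71 without pair 3, against 10. Of the 29 members 16 had a positive and 13 a negative difference. The median was 0.067, and 0.00367 over all genes tested. Without pair 1 the members' median was -0.067. The groups did not overlap in 8 members (27.6%), against 27.7% of all genes tested. Of these, 6 were higher in KO (all genes, 15.2%) and 2 lower (12.5%). By direction these are 20.7% and 6.9% of the members, the former above and the latter below the share of all genes, and the shares in either direction are near or below it. The 95% intervals of the single differences were between 0.459 and 1.46 wide, and their outer bounds were -1.36 and 1.23, so differences of that size are not excluded for the low members.

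**Figure D2:**
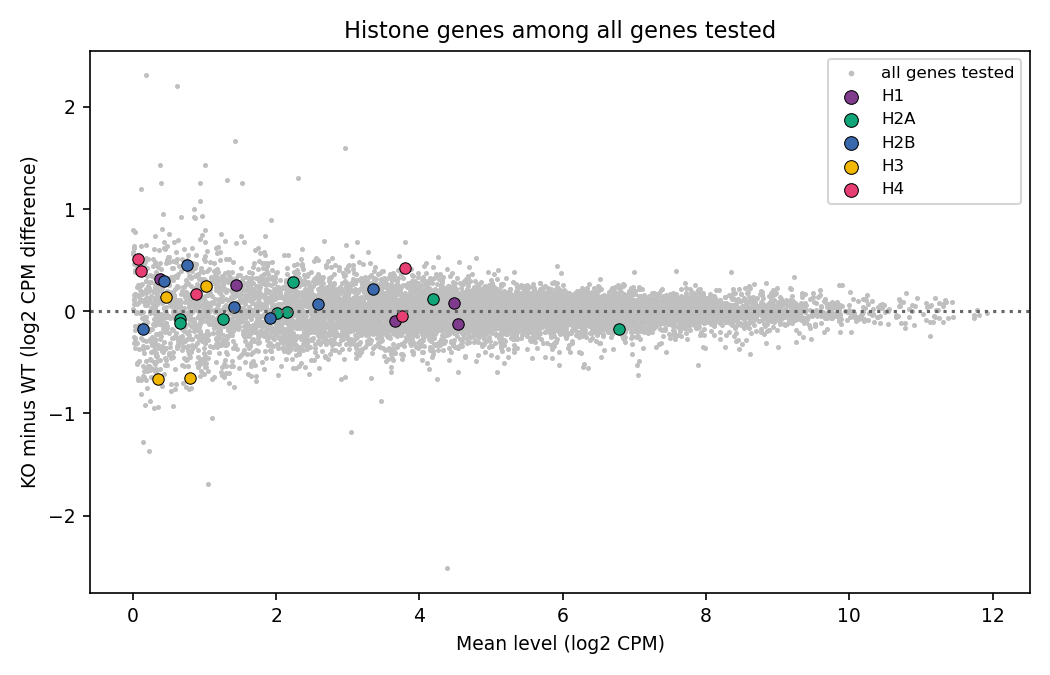
Difference between KO and WT in log2 CPM (vertical) against mean level in log2 CPM (horizontal) for the 10133 genes tested (grey points) and the 29 tested histone genes (coloured by class). The histone genes lie among the other genes of their level, between -0.666 and 0.508.

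The numbered pairs did not move together. In pair 1 the median over the 29 members was 0.163 and 20 were higher in KO, in pair 2 it was -0.099 with 14 higher, and in pair 3 it was 0.033 with 17 higher. The medians over all genes tested were 0.003, 0.011 and 0.004 in the 3 pairs. Of the 29 members 18 had opposite signs in pairs 1 and 2. The SD of the paired differences was larger than the mean difference in 23 members. The shares of all genes tested were not taken for these counts, so they show nothing particular to the histone genes.

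For 6 members the paired differences varied more than in at least 90% of the 200 tested genes nearest to them in level. They were Hist1h2ae, Hist2h2ac, Hist1h4d, Hist1h1b, Hist1h1d and Hist1h3i, from every class but H2B. In 5 of them pairs 1 and 2 went opposite ways, up in pair 1 and down in pair 2, and the sixth, Hist1h4d, differed by 0.99 in pair 1 and by 0.01 in pair 2. Hist1h1d, the H1.3 gene, differed by 1.28, -0.45 and -0.05 in the 3 pairs. Hist1h3i, one of the H3 genes, differed by 0.46, -1.13 and -1.33. In contrast, Hist1h1c, Hist1h1a, Hist1h2bm and Hist1h4c varied less than 90% of such genes.

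**Figure D3:**
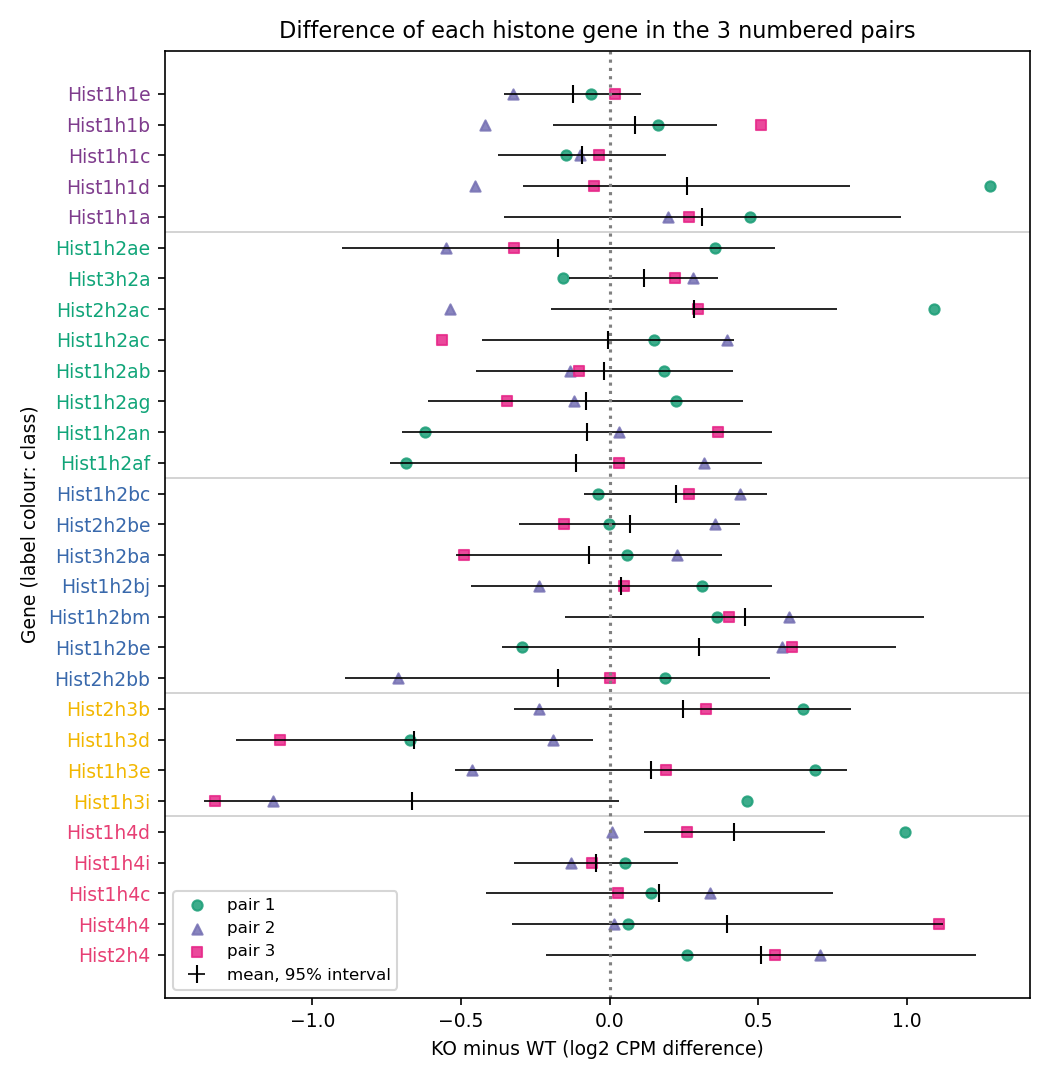
Difference between KO and WT in log2 CPM in each numbered pair (points) for the 29 tested histone genes, grouped by class, with the mean and its 95% interval from limma (black). Points of pair 1 (circles) often lie on the other side of 0 from those of pair 2 (triangles), and the intervals of Hist1h4d and Hist1h3d alone leave out 0.

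The linker histone H1 binds the DNA between nucleosomes and compacts chromatin. Its tested genes differed by between -0.12 and 0.31, and none passed the test. Hist1h1e had 4.57, 4.70 and 4.53 log2 CPM in WT 1 to 3 and 4.51, 4.38 and 4.55 in KO 1 to 3, and the groups overlapped (-0.12 ± 0.18; limma adjusted p = 0.834). Its model overlaps that of Hist1h2be on the same strand, so reads there may belong to either. Hist1h1b had 4.40, 4.69 and 4.23 in WT and 4.57, 4.28 and 4.74 in KO, which cover the same range (0.08 ± 0.47). Hist1h1c, the H1.2 gene, was even across libraries, with 3.73, 3.71 and 3.68 in WT and 3.59, 3.61 and 3.64 in KO. All its KO values lay below all WT values by a small step (-0.09 ± 0.06; adjusted p = 0.917). Hist1h1a, the H1.1 gene, stood near 1 CPM and was higher in all KO libraries (0.31 ± 0.14; adjusted p = 0.868). Over the 5 tested H1 genes the median was 0.084, with -0.325 in pair 2, and without that pair it was 0.336.

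H2A forms with H2B the dimers at the outer faces of the nucleosome. The class gave 52.4% of the reads of the members, mostly through Hist1h2ae. This gene had 6.61, 7.06 and 6.95 log2 CPM in WT and 6.96, 6.51 and 6.62 in KO. WT 1 was low and KO 1 high, while the other 2 WT libraries lay above the other 2 KO libraries, so the groups overlapped (-0.17 ± 0.47; limma adjusted p = 0.917). The robust fit gave this gene 0.983 prior degrees of freedom, where the median was 81.2, so its own spread set its error. The call turned on pair 1: without it the difference was -0.44 (adjusted p = 0.00748), and without pair 2 it was 0.02 (adjusted p = 1). The fit without pair 1 called 27 of all genes tested higher and 109 lower at 5% FDR, against 17 and 10 in the main fit. A gene model on the other strand overlaps Hist1h2ae. Whether counting used strand is not stated, so reads of both genes cannot be told apart. The same holds for 20 other members, among them Hist3h2a and Hist2h2ac.

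Hist3h2a, an H2A gene of the small cluster on chromosome 11, had 4.27, 4.05 and 4.08 in WT and 4.11, 4.33 and 4.30 in KO, and the groups overlapped (0.12 ± 0.24). Hist2h2ac spread widely, with 1.69, 2.50 and 2.08 in WT and 2.78, 1.96 and 2.38 in KO (0.28 ± 0.81). Its sign rested on pair 1, without which the difference was -0.12. The remaining tested H2A genes differed little on average: Hist1h2ac by -0.01, Hist1h2ab by -0.02, Hist1h2an by -0.08, Hist1h2ag by -0.08 and Hist1h2af by -0.11. The groups overlapped in all 8 tested H2A genes.

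The H2B genes were led by Hist1h2bc. Its longest model has 2 exons and no stem-loop, and the gene had 3.37, 3.13 and 3.21 log2 CPM in WT and 3.33, 3.57 and 3.48 in KO. KO 2 and KO 3 lay above all WT libraries, and KO 1 did not (0.22 ± 0.24; limma adjusted p = 0.760). Hist2h2be, whose single model of 2620 bases shares no window with another gene, had 2.58, 2.40 and 2.65 in WT and 2.58, 2.75 and 2.50 in KO (0.07 ± 0.26). Hist3h2ba, next to Hist3h2a on chromosome 11, had 1.89, 1.80 and 2.16 in WT and 1.95, 2.03 and 1.67 in KO (-0.07 ± 0.37). In these 2 genes the groups overlapped. Hist1h2bm was the single tested H2B gene without overlap, higher in KO in every pair (0.46 ± 0.13; adjusted p = 0.744). Hist1h2be (0.30), Hist1h2bj (0.04) and Hist2h2bb (-0.18) had mixed signs over the pairs.

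H3 and H4 form the tetramer at the core of the nucleosome. The 12 H3 genes gave 3.45% of the reads of the members, the least of the 5 classes. Hist2h3b had 0.70, 1.15 and 0.86 log2 CPM in WT and 1.35, 0.91 and 1.19 in KO (0.25 ± 0.45). Every window of its sequence occurs in another gene. Gm20628, which overlaps it on the other strand, is among the genes counted, beside other H3 genes. Hist1h3d was lower in all KO libraries, with 1.13, 0.89 and 1.35 in WT and 0.46, 0.70 and 0.24 in KO. The groups did not overlap, at levels of 2.18 and 1.38 CPM (-0.66 ± 0.46; limma unadjusted p = 0.0326, adjusted p = 0.483). Hist1h3e had 0.12, 0.70 and 0.37 in WT and 0.81, 0.23 and 0.56 in KO, and the groups overlapped (0.14 ± 0.58). With Hist1h3i (-0.67 ± 0.98; adjusted p = 0.608) 2 tested H3 genes were higher and 2 lower in KO.

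The tested H4 genes were higher in KO in 4 of 5 cases, and in those 4 the groups did not overlap, where 15.2% of all genes tested were higher without overlap. None passed the test. Hist1h4d had 3.30, 3.79 and 3.66 log2 CPM in WT and 4.29, 3.80 and 3.92 in KO, a difference carried by pair 1, in which WT 1 was the lowest and KO 1 the highest of the 6 libraries (0.42 ± 0.51; 95% interval 0.11 to 0.73; limma unadjusted p = 0.00843, adjusted p = 0.317). Without pair 1 it was 0.13 (limma adjusted p = 0.920). The standard error of Hist1h4d, 0.151, drew on 35.57 prior degrees of freedom against 2 residual ones, so it rested mostly on other genes. Hist1h4i was even, with 3.73, 3.83 and 3.79 in WT and 3.79, 3.69 and 3.73 in KO (-0.05 ± 0.09; adjusted p = 0.962). Hist1h4c had 0.81, 0.71 and 0.86 in WT and 0.94, 1.04 and 0.89 in KO (0.17 ± 0.16). Hist4h4 (0.40 ± 0.62) and Hist2h4 (0.51 ± 0.23; adjusted p = 0.771) lay near 1 CPM.

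The median over the 5 tested H4 genes was 0.396, and it was 0.182 without pair 1 and 0.238 without pair 3. Over all 12 H4 genes above the floor it was 0.168. Among the 7 H4 genes below 1 CPM, 1 was higher and 1 lower without overlap. All H4 genes encode the same protein, and the sequences of most are partly shared. Among the tested H4 genes only Hist2h4 shares no window with another gene. Hist4h4 shares 5.4% of its windows, with genes that are not H4 genes.

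**Figure D4:**
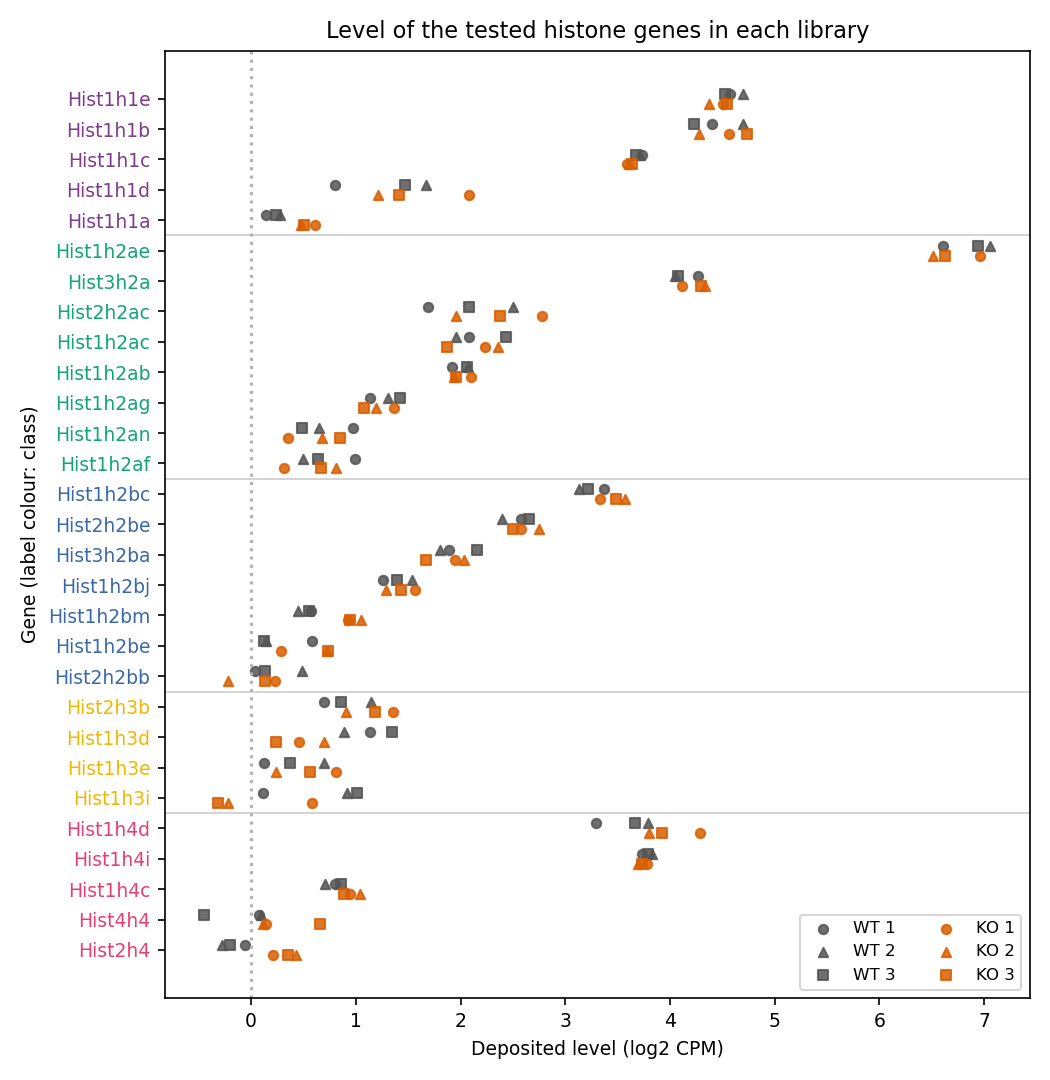
Level in log2 CPM (horizontal) of the 29 tested histone genes in the 3 WT libraries (grey) and the 3 KO libraries (orange), with a marker shape for each replicate number and genes grouped by class. Hist1h2ae lies between 6.51 and 7.06 in all libraries, and the other genes lie below 5, most with WT and KO points intermixed.

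Summed by class, WT and KO differed by less than their SD in H1, H2A and H3, and by more in H2B and H4, where the pairs did not all go one way. H1 came to 63.0 ± 5.63 CPM in WT and 62.3 ± 5.55 in KO (SD, n = 3 libraries), and H2A to 157.2 ± 18.7 and 146 ± 18.2. H3 came to 10.2 ± 1.05 and 9.70 ± 0.989. H4 came to 29.3, 34.7 and 32.3 CPM in WT 1 to 3 and to 40.4, 33.5 and 35.9 in KO 1 to 3. The ratio of KO to WT was 1.38, 0.966 and 1.11 in the 3 pairs, so pair 2 went the other way. H2B came to 29.7 ± 1.35 in WT and 31.4 ± 1.36 in KO, with ratios of 0.988, 1.17 and 1.03, so it went the other way in pair 1. All members together came to 292.2 ± 24.3 and 286 ± 24.4 CPM.

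**Figure D5:**
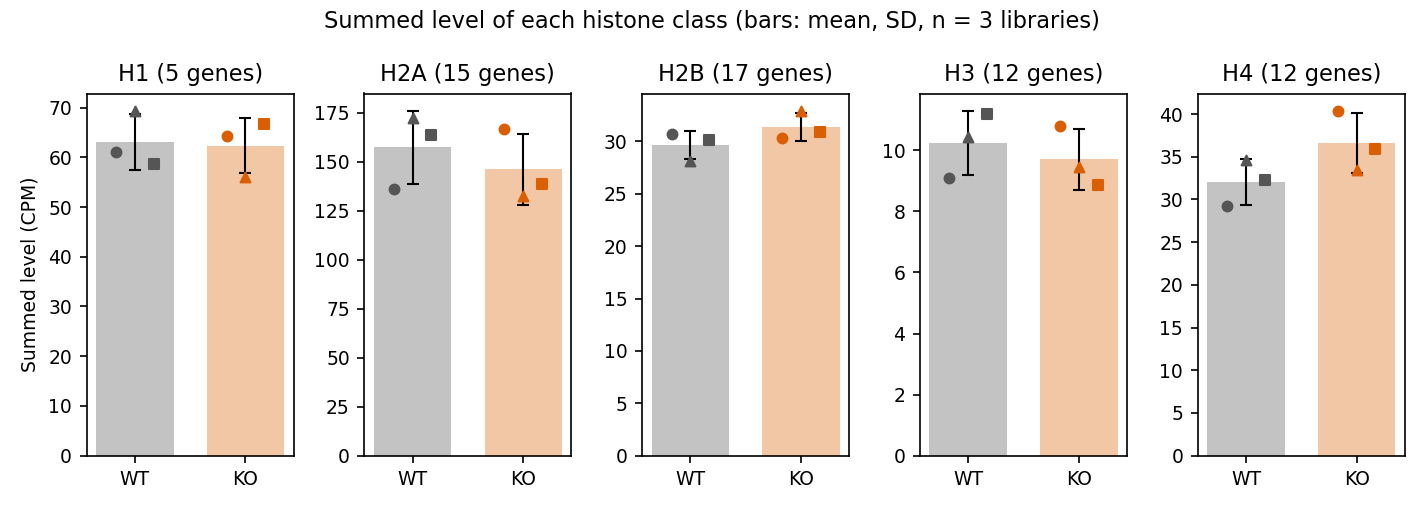
Summed level in CPM of the members of each class not at the floor in all libraries, in WT (grey) and KO (orange) libraries; bars are means, error bars SDs (n = 3 libraries), and points the single libraries with a marker shape for each replicate number. In every class the WT and KO points overlap; the H4 sum of KO 1, 40.4 CPM, is the highest of its class.

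The 32 members below 1 CPM, at means between -4.93 and -0.07 log2 CPM, were left out of the test. Their groups did not overlap in 8 (25%), against 12.3% of all genes below 1 CPM that vary between libraries (5.89% higher, 6.4% lower). Genes of that kind lay lower, with a median level of -3.69 log2 CPM against -1.84 for the members, so the shares compare unlike levels. Higher in KO without overlap were Hist1h2bk (1.07), Hist2h3c2 (0.65) and Hist1h4n (0.17). Lower were Hist1h4f (-1.25), Hist1h2bh (-1.15), Hist1h2bg (-0.71), Hist1h2bp (-0.64) and Hist1h3a (-0.48). When all 61 members above the floor entered the test, 0 passed 5% FDR by limma (0.637% of all genes in that fit did). An unadjusted p under 0.05 was reached by 4 members (8.59% of all genes in that fit), the 2 named above with Hist1h4j, which differed by 1.71, and Hist1h2bl, which differed by -1.55, the former with 2 pairs up and a difference of 0 in pair 2, the latter with pairs going both ways.

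Genes that work with the histones were compared through lists chosen with earlier results of these data known. None of their members passed 5% FDR by limma. The histone genes outside the clusters encode variants that replace the canonical histones throughout the cell cycle. Of 10 tested 3 were positive and 7 negative, with a median of -0.065. The H3.3 genes H3f3a and H3f3b differed by -0.09 ± 0.08 and -0.10 ± 0.04, H2afz, which encodes H2A.Z, by -0.04 ± 0.10, and H2afx, which encodes the DNA damage variant H2A.X, by 0.04 ± 0.07. Both replacement linker histones tested were lower in all KO libraries: H1f0 by -0.19 ± 0.09 and H1fx by -0.45 ± 0.48 (limma adjusted p = 0.396 each). So were H3f3b and H2afy (-0.12 ± 0.05), while H2afj was higher in all of them (0.08 ± 0.06). Over all genes tested, 12.5% were lower and 15.2% higher without overlap. Only H1f0 and H1fx of the list had an unadjusted p under 0.05.

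The list of histone gene transcription and 3′ end formation had 8 positive and 19 negative members of 27 tested, with a median of -0.051. Over all genes tested, 5202 were positive and 4925 negative. Slbp had 9.64, 9.69 and 9.67 log2 CPM in WT and 9.58, 9.52 and 9.54 in KO, all KO libraries below all WT libraries (-0.12 ± 0.05; limma adjusted p = 0.617). Npat, the coactivator of histone genes at the start of S phase, differed by -0.07 ± 0.18. The smallest p belonged to Upf1, which takes part in the decay of histone messenger RNA (-0.40 ± 0.38; adjusted p = 0.149), Sympk, a scaffold of the cleavage complex (-0.34 ± 0.29), and the transcription factor gene Yy1 (-0.29 ± 0.25). At an unadjusted p under 0.05, 1 of the 27 was higher and 5 lower, beside 4.16% and 4.66% of all genes tested.

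Of the 28 chaperone and assembly genes, which carry histones to DNA, 4 were positive and 24 negative, with a median of -0.069 (unadjusted p under 0.05: 1 higher and 5 lower, beside the same shares of all genes). Dnajc9, a histone co-chaperone, differed by -0.21 ± 0.08 (limma adjusted p = 0.213), the remodeller gene Atrx by -0.31 ± 0.33 and Ubn1, of the H3.3 chaperone HIRA, by -0.25 ± 0.21. The 48 DNA replication genes had 14 positive and 34 negative members, with a median of -0.050. At an unadjusted p under 0.05, 0 were higher and 6 lower, and the 3 smallest p values were those of Tipin (-0.23 ± 0.19), Clspn (-0.32 ± 0.36) and Pola1 (-0.20 ± 0.11). Of 16 genes of the canonical poly-A machinery 7 were positive and 9 negative (median -0.041; unadjusted p under 0.05: 0 higher, 2 lower). Rbbp6, a regulator of poly-A site cleavage, had the smallest p of that list (-0.34 ± 0.21; adjusted p = 0.0635), followed by Pcf11 (-0.26 ± 0.34) and Cstf1 (0.15 ± 0.15). The medians of the chaperone list in the 3 pairs were -0.059, -0.128 and -0.034 and those of the replication list 0.015, -0.153 and -0.053, beside 0.163, -0.099 and 0.033 for the tested histone genes. The 5 related lists had negative medians, as did the B cell and germinal centre marker lists (-0.105 and -0.075), and the tested histone genes a positive one (0.067). Of the other marker lists, naive B cell (0.085), plasma cell (0.054) and T cell (0.231, 1 tested gene) also had positive medians. Those of the myeloid (-0.332, 2 tested genes) and non-coding RNA lists (-0.224) were negative. The difference between the histone genes and these lists was not tested, and the sign of the histone median changed without pair 1.

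Markers of the labelled cells were high. The 6 B cell markers summed to between 8340 and 8650 CPM in WT and between 7810 and 8110 in KO, without overlap, and all 6 had a negative difference. The 8 germinal centre markers summed to between 4340 and 4500 in WT and between 4200 and 4350 in KO, and 6 of the 8 differences were negative. By limma, 3 of these 8 and 1 of the 6 B cell markers were lower at an unadjusted p under 0.05, and 0 higher. Over all genes tested, 4.66% were lower and 4.16% higher at that threshold. The 9 T cell markers came to between 190 and 203 in WT and between 222 and 237 in KO, nearly all from Lck (194.1 CPM in WT and 227.8 in KO, higher in every KO library; Cd3e was at the floor in all libraries), the 9 myeloid ones to between 8.76 and 14.7, and the 8 erythroid and platelet ones found in the files to between 1.15 and 2.89, with 3 of these at the floor in all libraries. The 7 naive B cell markers found came to between 492 and 553 CPM in WT and between 530 and 596 in KO, with overlap. Of the 6 tested, 5 were positive and 1 negative, and 1 was higher at an unadjusted p under 0.05 by limma. Their median was 0.085, and in the 3 pairs it was 0.0205, 0.536 and -0.0615. The 5 plasma cell markers came to between 2090 and 2310 CPM in WT and between 1960 and 2140 in KO, mostly from Igj, while Prdm1, the regulator of plasma cell fate, was at 1.16 CPM in WT and 2.20 in KO (0.93 ± 0.56; limma adjusted p = 0.256). None of these marker genes passed 5% FDR. Nuclear and other non-coding RNAs, read as a check of RNA quality, had 8 tested genes with median differences of -0.32, -0.714 and 0.26 in the 3 pairs. The part of these marker and RNA differences in the histone values was not tested. Each library listed between 10160 and 10173 genes at or above 1 CPM, and the read depth is unknown because the values were already scaled.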

How the data were processed

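The files hold 1 value per gene for 23420 genes in 6 libraries, deposited by the authors as log2 values. That these are log2 CPM with a small offset was worked out from the values, whose linear sums were between 997617 and 1000513. The submitters' processing notes name STAR 2.6.1a, Subread 2.0.1 with featureCounts, limma, FastQC 0.11.7 and Trim Galore 0.6.5, and the build mm10. Strand and multi-mapping settings and the read depth are not given there, so no counting interval can be stated.

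The deposited log2 values were fitted in limma 3.58.1 (R 4.3.3) with genotype and replicate number as terms, a variance trend and robust moderation. Two-sided p-values were adjusted by Benjamini-Hochberg, at 5% FDR, over the 10133 genes with a mean log2 CPM of at least 0 (1 CPM as a geometric mean) and not 1 value in all libraries. The block was kept because the files already lack replicate differences, which uses 2 degrees of freedom per gene; 2 residual ones remain and a median of 81.2 prior ones. The correlation of same-numbered libraries is fixed by this and says nothing on pairing. With 3 pairs, exact sign flips reach p = 0.25 at the lowest. The fit was also run on simulated normal values in which genes of like level had the same spread. That run cannot speak for members that spread more widely than genes of their level.

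The members, lists and tests were chosen with earlier results of these data known. Named with all values were the 3 members of each class with the highest mean log2 CPM and those with an unadjusted p under 0.05; from each related list the 3 smallest p and Slbp, Npat, H3f3a, H3f3b, H2afz, H2afx, H1f0 and Basp1. Other members singled out were chosen after their values were seen. Lengths, stem-loops and shared windows came from GENCODE M21 transcripts and its GRCm38 annotation.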

Additional observations from a re-analysis of the deposited data

How the results depend on the processing

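Members with an unadjusted p under 0.05 numbered 1 higher and 1 lower. The higher count was 5 without the replicate block and 3 without the variance trend. Both counts were 2 with no filter, and the lower count was 0 at 8 CPM. Without 1 pair the counts ranged from 0 to 4 higher and 0 to 2 lower. The share of all genes at that threshold was taken only in the main fit (8.82%) and with no filter (8.59%). No histone gene passed 5% FDR without the replicate block, the variance trend, robust moderation or the filter, with a filter at 8 CPM, with log2(CPM + 1) or with centred libraries; without 1 pair the counts were 0 to 0 higher and 0 to 1 lower. Over all genes, 17 higher and 10 lower became 99 and 43 without the replicate block, 0 and 0 without the variance trend, 7 and 5 with non-robust moderation, 42 and 53 with no filter on low values, and between 4 and 28 higher and between 7 and 109 lower without 1 pair. The median over the tested members ranged from -0.067 to 0.0835 without 1 pair. For H1 the range was -0.123 to 0.336, for H2A -0.101 to 0.0385, for H3 -0.393 to 0.00375, so that these 3 changed sign, for H2B 0.101 to 0.142 and for H4 0.182 to 0.408. The H4 median was 0.168 with no filter, 0.187 at 8 CPM (2 genes) and 0.205 with log2(CPM + 1). The H3 median was 0.153 with no filter (12 genes), and the H1 median was -0.094 at 8 CPM (3 genes). Without 1 pair, the difference ranged from -0.4375 to 0.0165 for Hist1h2ae, -0.12 to 0.694 for Hist2h2ac, -0.137 to 0.44 for Hist1h3e, -0.0775 to 0.1775 for Hist2h2be, -0.1275 to 0.3355 for Hist1h1b and -0.215 to 0.142 for Hist3h2ba, so that each changed sign. Only Hist1h2ae was called, without pair 1. The cause was not tested, other than that fewer genes or pairs entered. The unknown depth and 3 pairs limit what can be seen for members near 1 CPM.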
